A study of Mus musculus with 36 samples.

Results

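Livers of chow-fed mice carrying 1 mutant LXRalpha allele (W/F) were compared with livers of chow-fed control mice (W/W), 4 libraries against 4 of the 36 in the series. Members were taken by the genotype and diet labels alone. All 16638 genes that passed a filter on low values over the 36 libraries entered the test, and shares of all genes refer to these. Set on the 8 compared libraries, the same filter passes 12703 genes. In the mutant allele, made by CRISPR, tryptophan 441 of LXRalpha is replaced by phenylalanine. The W/W group carries no mutant allele, the W/F group carries 1, and a further chow group (F/F) carries the mutation on both alleles. All mice were males of 11 to 12 weeks, and what was measured was polyA RNA from whole liver. Chow mice came from a separate cohort from the mice on the MASH diet, a high fat, high cholesterol diet fed for 4 weeks with vehicle or the LXR agonist T0901317 at 10 mg/kg daily for the last 2 weeks. The number of founder lines, and whether a library is 1 animal or a pool, were not given in the sources used here. The p-values therefore measure a spread between libraries, estimated within groups over all 36.

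LXRalpha is a nuclear receptor that binds oxidised cholesterol and, paired with RXR, controls genes of cholesterol export, bile acid handling and fatty acid synthesis. In liver its best known lipogenic targets are Srebf1, the transcription factor that drives fatty acid synthesis genes, and Scd1, the desaturase that makes oleate and palmitoleate. Cholesterol synthesis is controlled separately, mainly by the transcription factor encoded by Srebf2, which acts when cell cholesterol is low.

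The series text pairs LXRalpha with the symbol Nr1h2, while the usual symbol of LXRalpha is Nr1h3 and Nr1h2 is that of LXRbeta, so both are given. Nr1h3 stood at 79.1, 91.1, 107 and 90.9 TPM in the W/W libraries and at 81.3, 87.4, 102 and 109.7 TPM in the W/F libraries. TPM is transcripts per 1e+06 transcripts, a level corrected for gene length and library total. Nr1h2 stood at 24.5 ± 1.39 TPM in W/W and 24.8 ± 2.78 TPM in W/F (SD, n = 4 each). Neither level differed beyond its spread, and the groups overlapped. A level per gene cannot separate the 2 alleles of a point mutation, so the table does not check the genotype labels.

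Recovered depth was 18.1 to 29.1 M reads (1 M is 1e+06) in the 8 libraries. The 10 hepatocyte markers summed to 75437 to 113365 TPM in W/W and 65843 to 102734 TPM in W/F. W/W replicate 1 was the deepest at 29.1 M reads, followed by W/W replicate 4 at 24.0 M. The lowest hepatocyte sum in W/F, 65843 TPM, lay well below the W/F median of 94612 TPM. Mitochondrial genes held 9.40% of TPM in W/F replicate 4 and 12.0% to 12.5% in the other W/F libraries. No library was left out of the main fit. Within W/W, replicate 3 was lowest in several lipid genes and replicate 2 highest in several sterol genes, with the values given below.

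With 1 mutant allele, Scd1 fell furthest, and Srebf1, Acacb, Pltp, Lpl and Fabp5 fell as well, while 11 of 27 tested sterol genes rose. Most tested genes of each lipid list were not called, with the counts given below. By limma with Benjamini-Hochberg adjustment, 81 genes passed an adjusted p of 0.05 ("called" from here on), or 0.487% of those tested. Of these, 33 were higher in W/F (0.198% of genes) and 48 lower (0.288%). The 4 W/F libraries did not overlap the 4 W/W libraries in 68 of the 81, while 3.52% of all tested genes were without overlap. The fitted change was at least 2-fold for 16 of the higher and 29 of the lower genes, on the log2(TPM + 1) scale that is used for every fitted difference here. This scale understates changes of weakly expressed genes. The median difference over all genes was 0.03.

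The count depends on where the spread is estimated. The fit shares 1 estimate over all 36 libraries. With only the 8 libraries compared, 3 genes were called (Scd1, Nsdhl and 1700092C10Rik, 0.018% of genes), and with the 12 chow libraries 12 genes were called (0.0721%). Each group has its own mean, so fitted differences and their directions are the same in these fits, and only the spread changes. All 81 genes had an unadjusted p under 0.05 in both smaller fits, where 6.42% and 5.43% of all genes had such a p. The 81 were picked with the same 8 libraries, so these p-values are no separate check. Apart from the 3 genes named above, each call named below was lost with the 8 libraries alone. Leaving out 1 of the 8 libraries in turn gave 53 to 99 calls, the fewest without W/W replicate 4, and 45 of the 81 genes were called in each of these 8 fits. With a pseudocount of 0.1 in place of 1, the calls of Enho (adjusted p = 0.0905), Idi1 (0.0695), Srebf2 (0.0595), Gm43031 (0.494), Gm13502 (0.363), Gm12405 (0.26) and Gm19572 (0.0834), all named below, were lost. With recovered reads, those of Gm43031 (0.0874) and Gm19572 (0.0702) were lost too.

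**Figure D1:**
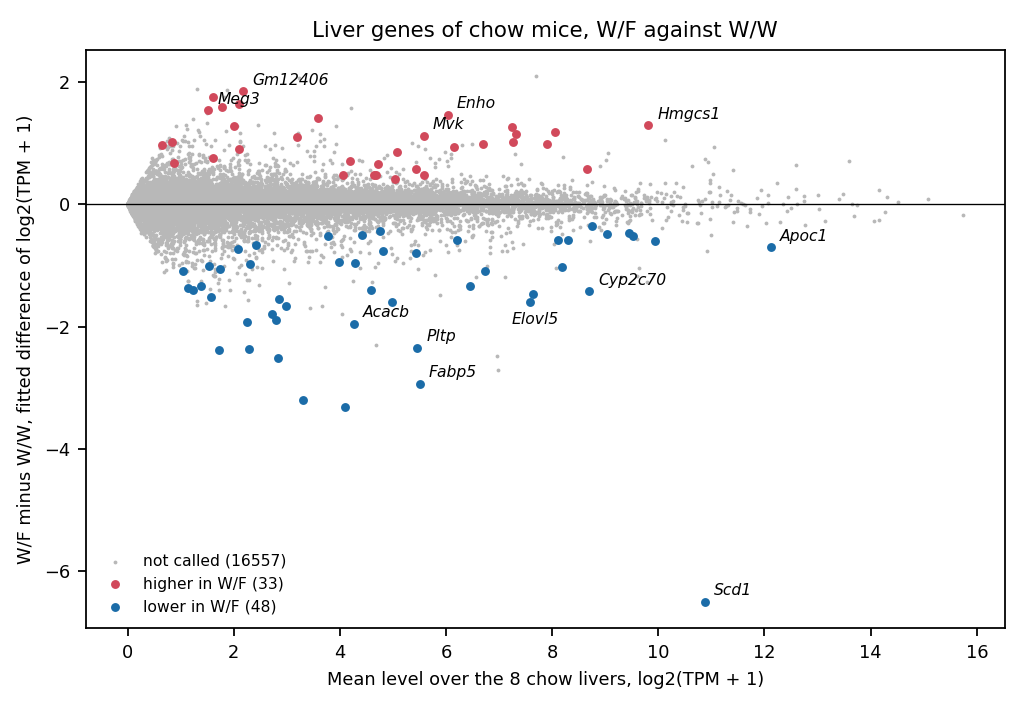
Fitted W/F minus W/W difference of log2(TPM + 1) against mean level over the 8 chow libraries, 1 point per tested gene. The 33 genes called higher and the 48 called lower are coloured, and Scd1 lies apart from all others at -6.51.

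Scd1 (ENSMUSG00000037071, chr19:44394455-44407879 in GRCm38) fell further than any other tested gene. Its level was 3818, 4146, 1423 and 5447 TPM in the W/W libraries and 30.01, 63.5, 37.8 and 21.8 TPM in the W/F libraries. Even the lowest W/W library, replicate 3, lay far above the highest W/F library. The means of 3708 ± 1678 and 38.3 ± 18.0 TPM (SD, n = 4) differed 96.9-fold, with a fitted difference of -6.51 (SE 0.30, adjusted p = 5.21e-16). With both alleles mutant, the 4 F/F libraries stood at 50.3 to 93.5 TPM, a range that the W/F libraries partly overlapped from below. F/F and W/F differed by 0.79 (SE 0.30, adjusted p = 0.0329), a comparison that shares the W/F libraries.

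Other genes of fatty acid synthesis fell by less on the log2 scale. Srebf1 was 134, 116, 119 and 125 TPM in W/W and 67.1, 45.4, 52.9 and 33.0 TPM in W/F, with a fitted difference of -1.34 (SE 0.22, adjusted p = 0.000492). The W/W values lay close together and every W/F value was below them. Acacb, the acetyl-CoA carboxylase of the mitochondrial surface, was 14.7 to 43.6 TPM in W/W and 4.43 to 8.42 TPM in W/F (-1.96, SE 0.28, adjusted p = 9.19e-05). Elovl5, an elongase of polyunsaturated fatty acids, was 144 to 395 TPM in W/W and 54.7 to 133 TPM in W/F (-1.59, SE 0.27, adjusted p = 0.00114). For both, W/W replicate 3 was the lowest control and still did not reach the W/F range. Pnpla3, a lipase-like protein of lipid droplets, was also called lower, but at 0.472 to 6.35 TPM in W/W and 0.0754 to 0.155 TPM in W/F it was near the detection limit, and 6 of the 8 leave-one-out fits lost it.

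Several lipogenic genes did not pass the test. Fasn, the fatty acid synthase, was 82.6 to 185 TPM in W/W and 54.1 to 91.4 TPM in W/F, with overlap and an adjusted p of 0.739. Acaca, the cytosolic acetyl-CoA carboxylase, was without overlap but missed the threshold (-0.69, SE 0.18, adjusted p = 0.0927). Of the 27 tested genes of fatty acid and triglyceride synthesis, 3 were called lower (Srebf1, Acacb and Pnpla3) and none higher, with a median difference of -0.33 against 0.03 over all genes. Of 17 tested desaturases and elongases, 2 were called, Scd1 and Elovl5, and the median was -0.00.

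The upstream window of an internal Srebf1 start holds letters of an LXR binding motif, and is printed because Srebf1 is the named link between LXR and lipogenesis. The motif searched was GGTNA and then GGTCA with 5 bases of any kind between them, and capitals mark it, here as its reverse complement, 182 to 168 bases before the RefSeq start (GRCm38.p6, chr11:60210609-60210683, minus strand, inside the bounds of the gene and on no annotated exon).
Srebf1: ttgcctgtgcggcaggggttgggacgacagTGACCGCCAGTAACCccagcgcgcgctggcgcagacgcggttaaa
On either strand, 0.177% of 32851 RefSeq promoters (250 bases before a start) held the motif. It was found in 2 of the 34 genes called lower that matched the promoter table (Srebf1 and Haao) and in 0 of the 23 matched genes called higher. With GGTCA required in both places, 0 of the 34 and 0 of the 23 matched, and 0.0639% of promoters did. This looser form was one of 11 patterns counted in these promoters, and it and the patterns shown for the sterol genes were chosen after their matches were seen. A match is a description of letters, not of binding.

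Of 21 tested apolipoproteins and plasma lipid enzymes, 4 were called lower and none higher, 17 were not called, and the median was -0.19. Pltp, the phospholipid transfer protein of plasma, was 120.2, 35.96, 33.9 and 101 TPM in W/W and 6.88, 26.2, 13.3 and 6.60 TPM in W/F (-2.35, SE 0.37, adjusted p = 0.000392). The groups were close, with W/F replicate 2 just under the lower W/W pair, and 10.8% of the Pltp sequence is shared with other genes. Lpl, the lipase that releases fatty acids from lipoproteins, was 6.79 to 16.1 TPM in W/W and 1.46 to 2.32 TPM in W/F (-1.89, SE 0.30, adjusted p = 0.000447). Apoc1, an apolipoprotein that restrains lipid clearance, was the called gene with the highest level, at 4614 to 6081 TPM in W/W and 2745 to 3800 TPM in W/F (-0.70, SE 0.11, adjusted p = 0.000447).

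Among 24 LXR target genes 7 were called lower and none higher, and the median was -0.49 against 0.03 over all genes. Without overlap, 10 of the 24 were lower in W/F, beside 1.41% of all genes. Among the called were Srebf1, Scd1, Pltp, Apoc1, Lpl and Pnpla3. The sterol transporters among the targets did not pass the test. Abca1, which exports cholesterol to apolipoprotein A-I, was 37.0 ± 7.36 TPM in W/W and 29.0 ± 3.06 TPM in W/F (SD, n = 4, adjusted p = 0.878). Abcg5 and Abcg8, the paired exporters of sterol into bile, had fitted differences of 0.03 and 0.16 with overlapping libraries. Abcg1 was without overlap at 2.09 to 3.63 TPM against 1.15 to 1.92 TPM (adjusted p = 0.930). Lpcat3, which puts polyunsaturated chains into phospholipids, was also without overlap (63.2 to 90.6 against 38.7 to 61.4 TPM) but was not called (adjusted p = 0.106). None of the 20 LXR receptors, partners and cofactors was called, and their median was 0.10.

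**Figure D2:**
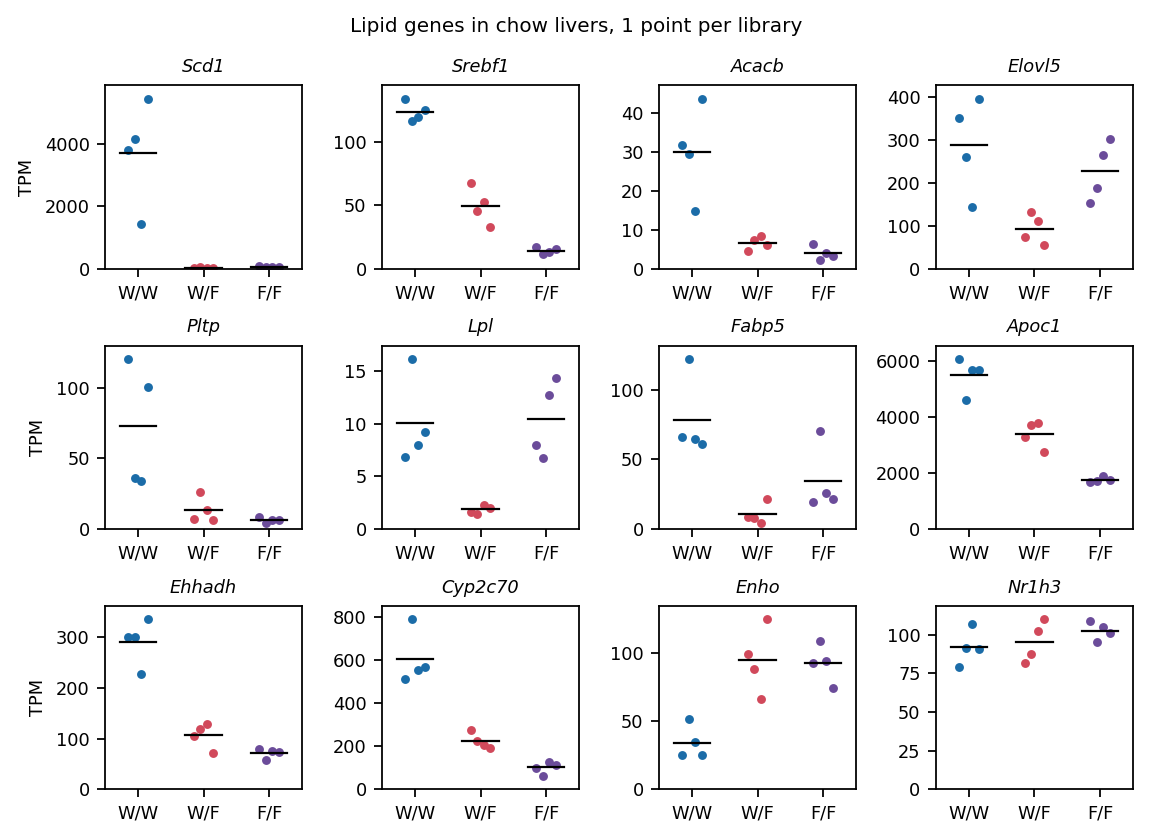
TPM of 12 genes in the chow libraries of each genotype, 1 point per library with the mean as a bar, on linear axes from 0. W/F lies below W/W for Scd1, Srebf1, Acacb, Elovl5, Pltp, Lpl, Fabp5, Apoc1, Ehhadh and Cyp2c70, above it for Enho, and over it for Nr1h3.

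Single genes of fatty acid binding and peroxisomal oxidation also fell. Fabp5, a fatty acid binding protein, was 66.0, 122, 64.7 and 61.1 TPM in W/W and 8.67, 7.60, 4.09 and 21.7 TPM in W/F (-2.94, SE 0.36, adjusted p = 1.45e-05). W/W replicate 2 was well above the other controls, and all controls were above all W/F libraries. Of 14 genes of fatty acid uptake and binding 4 were called lower (Fabp5, Fabp2, Acsl5 and Dbi), with a median of -0.27. The calls of Fabp2, Acsl5 and Dbi were each lost in 5 or more of the 8 leave-one-out fits, with adjusted p up to 0.268.

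Ehhadh, the bifunctional enzyme of peroxisomal beta-oxidation, was 227 to 335 TPM in W/W and 72.1 to 128 TPM in W/F (-1.46, SE 0.20, adjusted p = 4.72e-05). Of 27 PPAR-alpha targets and oxidation genes, 2 were called lower, Ehhadh among them, and none higher, and the median of the list was -0.00. Cyp4a10 and Cyp4a14, fatty acid omega-hydroxylases, had larger fitted differences of -2.71 and -2.49 but were not called (adjusted p = 0.0612 and 0.522). Cyp4a14 ranged from 24.3 to 351 TPM within W/W and from 1.84 to 162 TPM within W/F.

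Cyp2c70, which makes the muricholic bile acids of mice, was 514, 788, 556 and 569 TPM in W/W and 273, 226, 205 and 192 TPM in W/F (-1.43, SE 0.19, adjusted p = 4.91e-05). Of the 18 genes on the bile acid list it alone was called. Slc10a2, the ileal-type bile acid transporter, is not on that list and was named after its values were seen. It was 16.2, 30.4, 13.5 and 18.9 TPM in W/W and 8.14, 9.06, 6.28 and 15.7 TPM in W/F, with overlap (-0.95, SE 0.23, adjusted p = 0.0484), and 6 of the 8 leave-one-out fits lost its call (adjusted p up to 0.315). Cyp7a1, the rate-limiting enzyme of bile acid synthesis, was 102 ± 21 TPM in W/W and 75.1 ± 35.6 TPM in W/F (SD, n = 4) and did not differ beyond its spread.

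Of 27 tested genes of sterol synthesis and uptake, 11 rose, none fell and 16 were not called. Of the 27, 4 were fitted lower, the median was 0.66 against 0.03 over all genes, and 14 were higher without overlap, beside 2.11% of all genes. Hmgcs1, which forms HMG-CoA at the head of the pathway, was 483, 830.2, 315 and 517 TPM in W/W and 1075, 1318, 1566 and 1075 TPM in W/F (1.30, SE 0.21, adjusted p = 0.000573). Mvk, mevalonate kinase, was 24.4 to 38.5 TPM in W/W and 60.5 to 73.2 TPM in W/F (1.13, SE 0.16, adjusted p = 9.19e-05). Idi1, the isopentenyl isomerase, was 75.5 to 124 TPM in W/W and 180.5 to 225 TPM in W/F (1.27, SE 0.23, adjusted p = 0.00216).

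The rise continued through squalene into the lanosterol branch. Fdft1 and Sqle, which make and oxidise squalene, were 1.99-fold higher each in W/F by group means. Lss, lanosterol synthase, was 18.9 to 34.96 TPM in W/W and 34.5 to 51.8 TPM in W/F, overlapping at W/W replicate 2. Cyp51, the lanosterol demethylase, was 2.28-fold higher (141 to 198 against 333 to 420.5 TPM). Msmo1, the C4-methyl oxidase, was 88.4 to 127 TPM in W/W and 207 to 240.3 TPM in W/F (1.15, SE 0.18, adjusted p = 0.000447). Nsdhl, which acts beside it, was 93.5 to 106 TPM in W/W and 183 to 235 TPM in W/F (1.02, SE 0.15, adjusted p = 0.000203), and was the sterol gene still called with the 8 libraries alone (adjusted p = 0.0257). Hsd17b7, the third enzyme of that step, was 1.95-fold higher.

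Srebf2, the transcription factor of this pathway, was also called. It was 27.5, 34.9, 37.6 and 34.5 TPM in W/W and 40.3, 45.6, 61.6 and 57.7 TPM in W/F (0.58, SE 0.14, adjusted p = 0.0484). Insig1, which retains SREBP proteins in the endoplasmic reticulum, had a fitted difference of 0.17 and was not called. The calls of Srebf2 and Lss were lost in 6 and 5 of the 8 leave-one-out fits (adjusted p up to 0.281 and 0.0935), and the other 9 were held in all 8. W/W replicate 2 was the highest control for Hmgcs1, Idi1, Msmo1 and Lss. Idi1, Fdft1 and Hmgcs1 share 25.3%, 26.5% and 11.6% of their sequence with other genes.

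**Figure D3:**
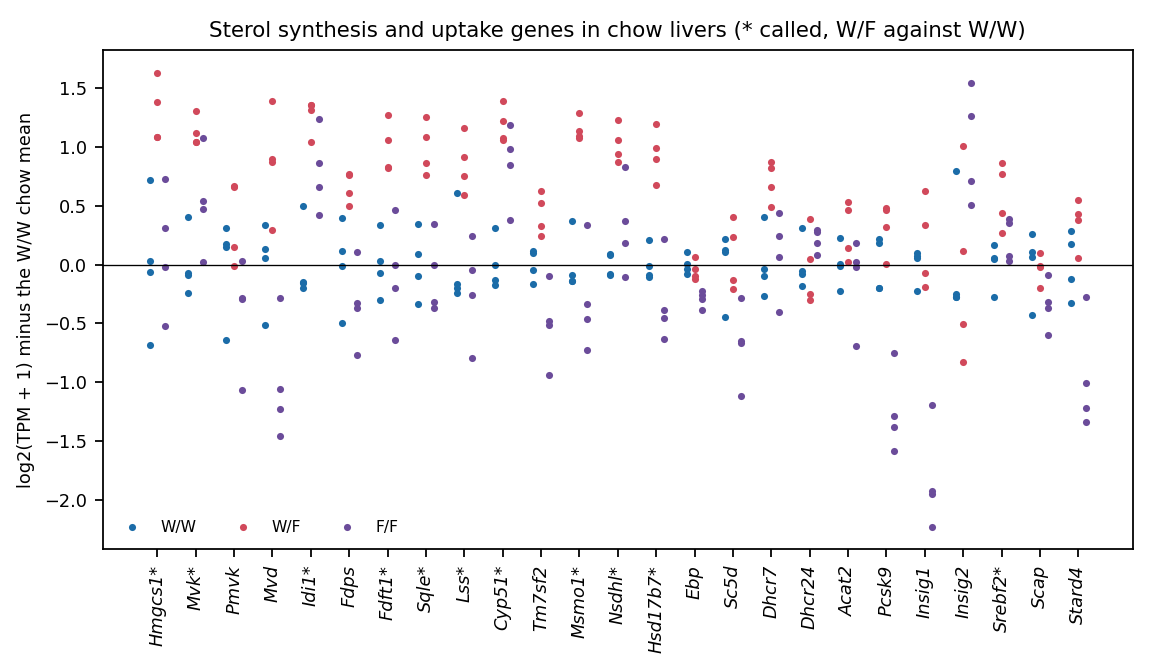
Level of 25 of the 27 sterol synthesis and uptake genes in each chow library, as log2(TPM + 1) minus the W/W mean of that gene, ordered from synthesis to regulation, with a star for the 11 called genes. W/F points lie above most W/W points from Hmgcs1 to Hsd17b7, while F/F points of many genes return to or below 0.

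Upstream windows of the sterol genes are printed to show the letters of 2 motifs known from promoters under SREBP control. Capitals mark the sterol element core TCACCCCA in Hmgcs1 (137 to 130 bases before the start, chr13:119690184-119690251, plus strand) and in Srebf2 (162 to 155 bases before the start, chr15:82147077-82147144, plus strand). All windows are from RefSeq on GRCm38.p6.
Hmgcs1: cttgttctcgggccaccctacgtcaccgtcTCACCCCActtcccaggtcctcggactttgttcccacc
Srebf2: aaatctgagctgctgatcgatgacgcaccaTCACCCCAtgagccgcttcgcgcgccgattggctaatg
The core was in 2 of the 9 called sterol genes that matched the promoter table, in 2 of the 34 matched genes called lower and in 1.34% of all promoters. A longer form, TCACNCCAC, was in 1 of those 9, in 4 of the 34 called lower and in 1 of the 23 called higher, beside 1.05% of promoters. The CCAAT box, searched on both strands as CCAAT, was in 9 of those 9 and in 17 of the 19 matched genes of the list, against 33.8% of all promoters and 39.9% of the 10846 tested genes with a promoter. The CCAAT box was also common in the genes called lower, in 19 of the 34 matched. The E-box CACGTG was in 5 of the 19 list genes, 1 of the 9 called sterol genes and 4 of the 34 genes called lower, beside 6.02% of promoters and 9.64% of the tested genes with a promoter. A gene with several starts was counted once if any window matched. In Mvk, capitals mark 5 CCAAT boxes, 4 of them as ATTGG, in the 203 bases before its start (chr5:114444066-114444268, plus strand).
Mvk: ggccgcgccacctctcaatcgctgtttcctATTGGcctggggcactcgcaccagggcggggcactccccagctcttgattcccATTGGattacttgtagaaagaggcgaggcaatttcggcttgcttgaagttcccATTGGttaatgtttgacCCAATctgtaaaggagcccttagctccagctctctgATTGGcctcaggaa

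Of the 81 called genes, 15 had another called gene within 100 kb. The window held 312 tested genes, of which these 15 were 4.81%, beside 0.487% called among all genes. They formed 12 pairs, all with 1 direction within the pair, but 6 of the 12 lie among Enho and its neighbours. By the gene bounds used here, 3 of the pairs are of overlapping genes. Genes named here and outside the lists were chosen after their values were seen. Cetn2, a centrin of the centrosome, starts back to back with Nsdhl at a gap of 145 bases and was higher by 0.48 (SE 0.11, adjusted p = 0.0293). That call was lost in 6 of the 8 leave-one-out fits (adjusted p up to 0.112) and with recovered reads (0.0573). In the 109 bases from the end of Cetn2 to the RefSeq start of Nsdhl (chrX:72918412-72918520, plus strand), which cover part of the gap, capitals mark 2 CCAAT boxes as ATTGG.
Nsdhl: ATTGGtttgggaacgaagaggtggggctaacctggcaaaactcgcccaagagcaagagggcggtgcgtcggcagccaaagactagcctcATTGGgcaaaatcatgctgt
Gm43031, an intronic transcript model at a gap of 5687 bases from Cyp51, was higher by 0.90 (SE 0.17, adjusted p = 0.00428).

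Enho, which encodes the secreted peptide adropin, was 25.2, 51.5, 34.4 and 25.4 TPM in W/W and 99.1, 88.1, 66.0 and 124 TPM in W/F (1.47, SE 0.23, adjusted p = 0.000342). It was the only 1 of 15 liver-secreted hormones called. Its neighbours on chromosome 4, Dnaic1, Gm12406 and Gm12405, were called higher too, with differences of 1.64, 1.85 and 1.28 at 2.25 to 11.5, 4.06 to 8.70 and 2.81 to 5.54 TPM in W/F. Enho overlaps Dnaic1 and Gm12406. The strand setting of the counting is not given in the sources used here, so reads of overlapping genes cannot be told apart.

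On chromosome 9, the long noncoding RNA gene Gm34654 and the pseudogene Gm19572, within 100 kb of each other and of Elovl5 in a chain, were called lower. The RefSeq promoter window of Gm34654 (chr9:77851855-77852154) overlaps Gm19572 (chr9:77851708-77852045). Whether the 2 entries are 1 transcript was not tested. Gm34654 was 26.6, 17.2, 0.767 and 24.6 TPM in W/W and 0, 1.54, 0.217 and 0 TPM in W/F. In W/W replicate 3, the library lowest in Scd1 and Elovl5, it lay within the W/F range. On chromosome 14, 1700092C10Rik was 6.002, 4.06, 4.21 and 3.77 TPM in W/W and 0.205, 0, 0 and 0 TPM in W/F (-2.38, SE 0.19, adjusted p = 1.07e-09). Its overlapping neighbour Nkx2-6, a homeobox gene, was 1.63 to 2.87 TPM in W/W and 0 to 0.511 TPM in W/F. Every library of the W/F group lay below every W/W library for both genes.

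Meg3 and Rian, 2 long noncoding RNAs of an imprinted cluster on chromosome 12, rose from very low levels. Meg3 was 0.394 to 0.494 TPM in W/W, 2.19 to 4.399 TPM in W/F and 28.1 to 47.1 TPM in F/F. Rian was 0.133 to 0.180 TPM in W/W, 0.749 to 1.88 TPM in W/F and 13.3 to 21.7 TPM in F/F. It passed the filter of 1 TPM in 4 of the 36 libraries only through libraries of other groups, such as F/F, where it was high. Its level in F/F is therefore no separate check. The 3 genotypes did not overlap for either gene. The W/F minus W/W difference was 1.54 for Meg3 (SE 0.20, adjusted p = 4.72e-05) and 1.03 for Rian (SE 0.18, adjusted p = 0.00172).

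Among the other genes that the size rule named, Adam11, a membrane protein of the ADAM family, was 2.81 to 11.4 TPM in W/W and 0.291 to 0.715 TPM in W/F. Gm32468 was 6.12 to 15.9 TPM in W/W and 0.862 to 1.23 TPM in W/F. 1700080G11Rik and Klk1b4 were 3.67-fold and 3.46-fold lower in W/F by group means, and 21.3% of the Klk1b4 sequence is shared with other genes. The call of 1700080G11Rik was lost with a pseudocount of 0.1 (adjusted p = 0.25) and with recovered reads. Pcp4l1 was 2.91-fold higher (2.17 to 8.77 against 10.2 to 25.5 TPM), a call lost in 5 of the 8 leave-one-out fits. Gnpda1 and Nxpe2 were 1.61-fold and 1.69-fold higher, calls lost in 1 and 5 of those fits. Gm13502 was 2.38-fold higher, and all of its sequence (100%) is shared with other genes, so its reads cannot be assigned with certainty.

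Cells other than hepatocytes gave few calls. Mpeg1, a pore-forming protein of macrophages, was 32.0 to 57.2 TPM in W/W and 9.01 to 25.4 TPM in W/F (-1.59, SE 0.37, adjusted p = 0.0426). None of the 17 macrophage markers was called, 13 were fitted lower, and their sum was 214 to 296 TPM in W/W and 126 to 260 TPM in W/F. Ighm, the heavy chain of IgM, was 8.06 to 12.0 TPM in W/W and 1.05 to 3.44 TPM in W/F (-1.79, SE 0.40, adjusted p = 0.0284). The 7 lymphocyte markers, which include it, summed to 10.2 to 14.2 TPM in W/W and 2.24 to 4.47 TPM in W/F. Most of the W/W sum was Ighm itself. Of the 7 markers 5 were tested, of which 4 were not called and 1 was fitted higher. The calls of both Mpeg1 and Ighm were lost in 6 of the 8 leave-one-out fits, and that of Ighm with recovered reads (adjusted p = 0.241). In whole liver, fewer cells of a type and less RNA per cell cannot be told apart.

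No tested stellate, endothelial, bile duct, neutrophil, adipocyte, red blood cell or pancreas marker was called, but only 1 of 5 adipocyte and 2 of 6 pancreas markers passed the filter on low values. Bile duct markers summed to 50.1 to 61.6 TPM in W/W and 57.2 to 175 TPM in W/F. Pancreas markers summed to 22.9 to 28.6 TPM and 36.3 to 66.4 TPM, with Prss2, Cel and Pnlip at 0 in all 8 libraries. Nearly all of the latter sum was Cela1 (22.7 to 27.4 against 35.9 to 65.0 TPM, adjusted p = 0.141). The part of these cells in the gene results was not tested. All 15 genes on the interferon-stimulated list were fitted lower in W/F, with a median of -0.36, but none was called. Bst2 is not on that list and was called lower by limma (-1.03, adjusted p = 0.013). Its call was lost in 3 of the 8 leave-one-out fits. No gene was called among 18 clock, 18 cell cycle, 18 unfolded protein and stress, 19 growth hormone and sex-biased, 17 glucose and 14 phospholipid remodelling genes.

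**Figure D4:**
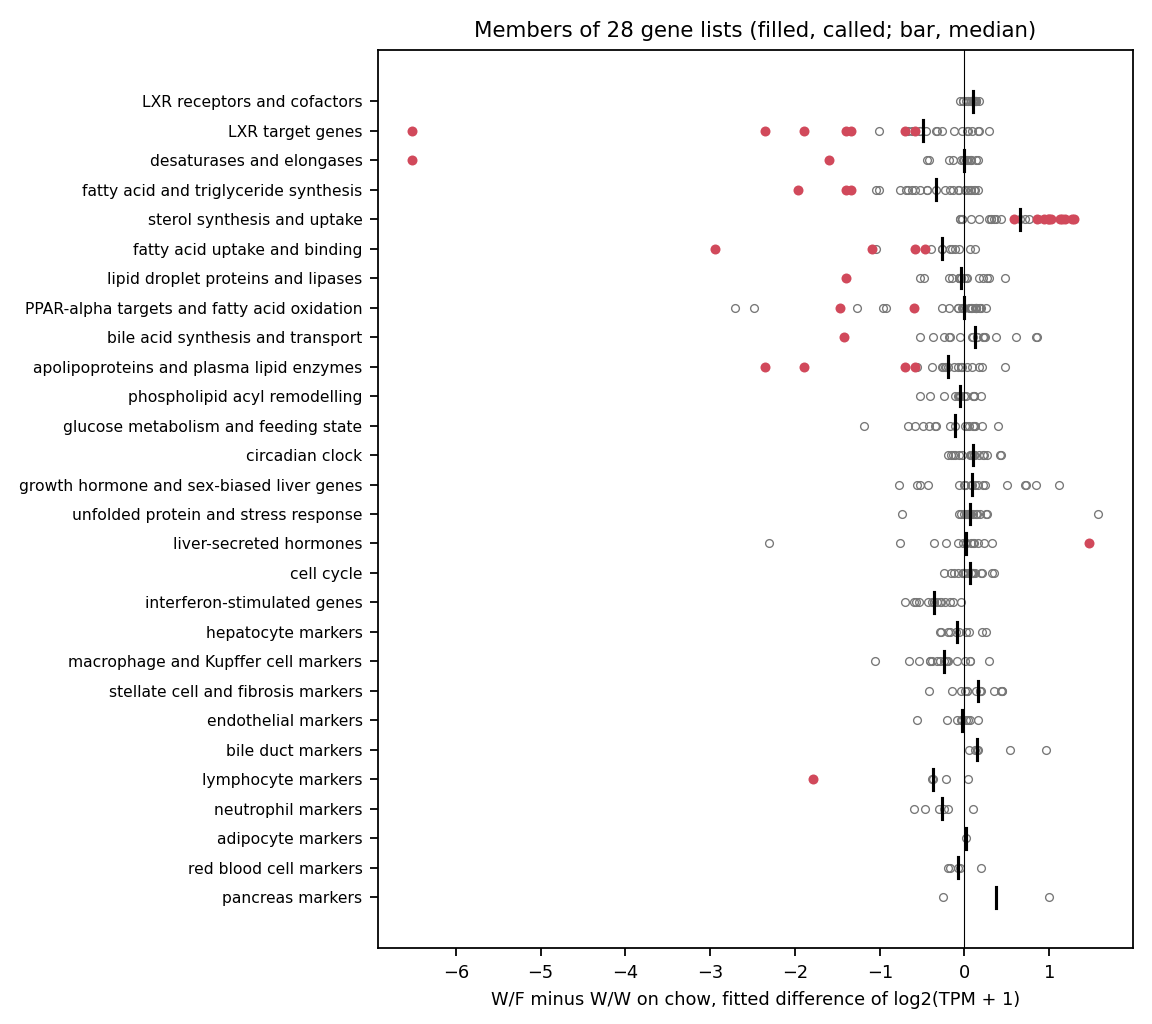
Fitted W/F minus W/W difference of log2(TPM + 1) for every tested member of 28 gene lists, with called members filled and the median of each list as a bar. Sterol genes sit to the right of 0, LXR targets spread to the left with Scd1 at -6.51, and most lists centre near 0.

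The F/F livers set the second mutant allele beside the first, in a comparison that shares the W/F libraries and in which 41.4% of all genes were called. Marker sums moved with that step, and their part in it was not tested. Macrophage markers reached 604 to 977 TPM in F/F, with 11 of 17 called higher than in W/F and 6 lower. Bile duct markers reached 721 to 982 TPM (6 of 6 higher) and stellate markers 362 to 740 TPM (13 of 14 higher). For Srebf1 the W/W, W/F and F/F means were 123, 49.6 and 14.3 TPM, and F/F was below W/F by a further -1.70 (SE 0.22, adjusted p = 4.75e-07). Apoc1 (5520, 3396 and 1766 TPM) and Cyp2c70 (607, 224 and 101 TPM) were likewise lower at each step, with adjusted p for the second of 2.2e-07 and 1.74e-05. Acacb was 29.9, 6.60 and 3.97 TPM, and its second step was not called (adjusted p = 0.061).

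Other genes were higher in F/F than in W/F. Lpl was 10.0, 1.85 and 10.5 TPM, with F/F above W/F by 1.96 (SE 0.30, adjusted p = 8.14e-06). Elovl5 was 287, 93.3 and 227 TPM, with F/F above W/F by 1.30 (SE 0.27, adjusted p = 0.000406). The sterol genes went the other way. Hmgcs1 means were 536, 1258 and 579 TPM and Sqle means 69.2, 137 and 65.5 TPM. In F/F against W/F, 23 of the 27 sterol genes were called lower and 1 higher, where 3.43% of all genes were lower and 37.9% higher. Enho was 34.1, 94.4 and 92.1 TPM, and W/F and F/F did not differ beyond their spread (-0.01, SE 0.23).

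The same genotypes on the MASH diet form separate sets of 8 libraries, which share none with the chow comparison. Of the 48 genes lower in W/F on chow, 28 were called lower and 9 higher in W/F with vehicle, where 6.83% of all genes were lower and 61.6% higher. Marker levels moved with the vehicle comparison, and their part in it was not tested. Hepatocyte markers summed to 79377 to 101941 TPM in W/W and 61364 to 71215 TPM in W/F, and 7 of 10 were called lower there. Macrophage markers summed to 298 to 494 TPM in W/W and 3754 to 4954 TPM in W/F. Of these 17 markers, 12 were called higher there and 3 lower. Stellate markers summed to 112 to 184 and 811 to 1088 TPM (14 of 14 higher), bile duct markers to 54.0 to 61.5 and 1163 to 1591 TPM (6 of 6 higher), and neutrophil markers to 3.33 to 7.32 and 77.3 to 147 TPM (6 of 6 higher). With T0901317, 37 of the 48 were called lower and 2 higher, where the shares of all genes were 6.23% and 3.65% (9.88% in either direction). Scd1 was lower under every condition: the W/F minus W/W difference was -6.51 on chow, -3.94 with vehicle and -3.53 with T0901317 (SE 0.30 each). Its W/W level was higher on the diet, at 7896 TPM with vehicle and 21770 TPM with T0901317, and its W/F level was 514 and 1900.2 TPM.

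The genes that rose on chow were called in both directions on the diet. Of the 33, 7 were called higher and 7 lower with vehicle, where 61.6% of all genes were higher and 6.83% lower. With T0901317, 5 of the 33 were higher and 14 lower, where the shares of all genes were 3.65% and 6.23%. Of the 27 sterol genes, 2 were called higher and 15 lower with vehicle, and 0 higher and 25 lower with T0901317, with medians of -0.34 and -1.71 beside 0.52 and 0.00 over all genes. Hmgcs1 differed by 1.30 on chow, -0.09 with vehicle and -2.08 with T0901317 (SE 0.21 each). Its W/W level was 536 TPM on chow, 60.4 TPM with vehicle and 180 TPM with T0901317. Enho was higher in W/F under all 3 conditions, by 1.47, 1.61 and 3.12 (SE 0.23 each).

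Lpl, Pltp and Fabp5 were lower in W/F on chow and higher in W/F with vehicle. In the vehicle comparison the sums of macrophage, stellate, bile duct and neutrophil markers were also higher in W/F. Lpl differed by -1.89 on chow, 2.90 with vehicle and -2.82 with T0901317 (SE 0.30 each). Fabp5 differed by -2.94, 3.04 and -3.96 (SE 0.36 each), and Pltp by -2.35, 1.32 and -3.74 (SE 0.37 each). All of these differences with vehicle or T0901317 were called. The change between chow and diet was itself tested for 11 of the genes, in fits that share the chow libraries. Over all genes, 54.6% changed between chow and vehicle (49.5% higher, 5.13% lower) and 2.54% between chow and T0901317 (0.541% higher, 2% lower). Diet cohort and diet cannot be told apart, since the chow mice were a separate cohort.

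**Figure D5:**
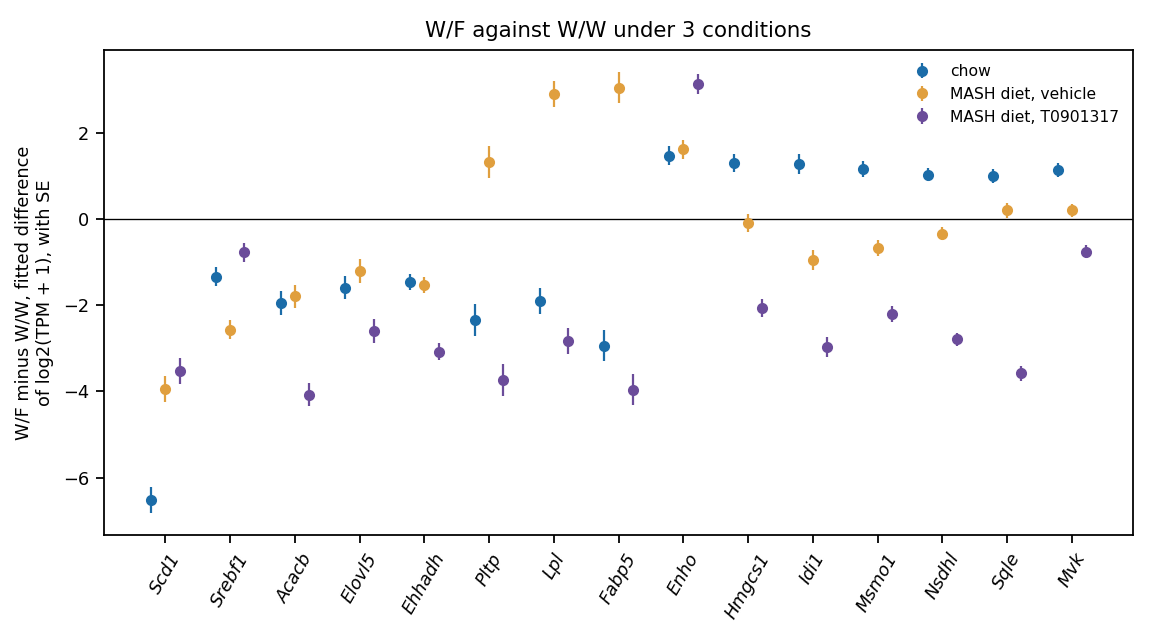
Fitted W/F minus W/W difference of log2(TPM + 1), with its SE, for 15 genes on chow and under both treatments of the MASH diet. Scd1, Srebf1, Acacb, Elovl5 and Ehhadh are below 0 under all 3 conditions, Enho is above 0 under all 3, and the sterol genes are above 0 on chow and below 0 with T0901317.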

How the data were processed

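The authors deposited 1 table of TPM per gene and library, and each column summed to 1e+06 when checked. Trimmomatic 0.36, STAR 2.5.2b, featureCounts and Subread 1.5.2, with GRCm38, are named per the submitters' processing notes. The annotation, strand setting and step to TPM are not given in the sources used here. TPM corrects for length and library total, not for a change in composition. Names, coordinates, shared sequence and exon lengths came from GENCODE M21 (49056 of 49315 genes matched). Depth was recovered from the step that 1 read makes in TPM (93.7% to 95.7% of low values whole within 0.1 reads). Genes with at least 1 TPM in 4 of 36 libraries were tested with limma 3.58.1 (trend, R 4.3.3) on log2(TPM + 1), 9 group means, two-sided, Benjamini-Hochberg, threshold 0.05. The script was tested on simulated data. Shared sequence was counted in words of 50 bases. The detection limit was 3 reads.

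The named genes were the 15 largest rises and the 15 largest falls among called genes whose groups did not overlap and whose higher group averaged 5 TPM or more, preset LXR genes, called list members, the 2 most changed members of each list, and genes called with the 8 libraries. Members, lists and motifs were chosen with earlier results of these data known. Alternatives were the pseudocount, filters, scaling, libraries fitted, replicate block, weights, recovered reads and leaving out libraries. Some genes of the lists are not reported here.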

Additional observations from a re-analysis of the deposited data

Results flagged for a closer look

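In 7 of 80 groups of 4 libraries (40 named genes in W/W and W/F), 1 library lay far from the other 3. Chance gives about 1 in 20 independent groups. The 80 groups share the same libraries, so 7 of 80 cannot be set against that rate. W/W replicate 2 was the high library for Idi1 (123.5 TPM), Msmo1 (126.7 TPM), Lss (34.96 TPM) and Fabp5 (122.1 TPM). W/W replicate 4 was high for Ighm (12.04 TPM). W/F replicate 1 was low for Idi1 (180.5 TPM) and the only W/F library above 0 for 1700092C10Rik (0.2049 TPM).

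For 11 named genes the W/F minus W/W difference was tested for a change between chow and the MASH diet, 22 tests in all by limma, which share the chow libraries with the chow comparison. The 11 were the largest named rises and falls on chow, and Srebf1, so this choice favours a change toward 0. In 17 of the tests the difference changed (adjusted p up to 0.0461). Over all genes, 54.6% changed with vehicle minus chow (median 0.49) and 2.54% with T0901317 minus chow (median -0.02). With vehicle minus chow, the change was 2.57 for Scd1, 5.98 for Fabp5, 3.67 for Pltp, 1.63 for Adam11, -1.23 for Srebf1, -1.39 for Hmgcs1, -2.22 for Idi1, -1.72 for Gm12406, -1.14 for Pcp4l1 and -1.07 for Gm32468. With T0901317 minus chow, it was 2.99 for Scd1, 1.24 for Adam11, 1.66 for Enho, -3.37 for Hmgcs1, -4.24 for Idi1, -1.69 for Gm12406 and -2.30 for Gm32468. A positive change of a gene that fell on chow means that it fell less, or was higher in W/F, on the diet. On the diet, the group means of Gm12406 in W/W and W/F were between 0 and 0.223 TPM.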

How the results depend on the processing

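Of 81 calls (33 higher, 48 lower), 3 (1 and 2) were left with only the 8 libraries compared, 12 (3 and 9) with the 12 chow libraries, and 17 (7 and 10) with the 8 libraries and a filter set on them, an alternative chosen after seeing the data. Array quality weights gave 132, of which 86 were lower. Leaving out 1 library gave 53 to 99 calls, 21 to 36 higher and 32 to 63 lower. The other filters, pseudocount, scaling and recovered reads gave 64 to 100. With the filter set on the 8 libraries and all 36 fitted, 76 of the 81 called genes were tested, and all 76 were called. The rest passed the filter only through other libraries. The filters, the replicate block and fitting only the 8 or 12 libraries leave a fitted difference unchanged, so its sign could not change there. The other alternatives reuse the libraries that picked the genes. With the pseudocount, scaling, weights, recovered reads or 1 of the 8 libraries left out, none of the 81 called genes changed sign. Of the genes named as not called, Abcg5, Abcg8, Nr1h2 and Nr1h3 did, down to -0.15 for Abcg5, -0.02 for Abcg8, -0.05 for Nr1h2 and -0.03 for Nr1h3 with 1 library left out. Labels give the groups the same replicate numbers, but same-numbered libraries correlated at -0.13 to 0.20 and 1 of 4 W/F libraries correlated best with its own number. The replicate block gave 73 calls with all libraries, and 0 (0 higher, 0 lower) by limma with the 8 libraries alone, where 1003 genes had an unadjusted p under 0.05. With 18.1 M reads (1 M is 1e+06) in the shallowest library, differences of genes under about 1 TPM rest on few reads, and 5 called genes were at or near the limit of 3 reads in a group.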
